A study of Mus musculus with 4 samples.

Results

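Broad distal control peaks are stretches of open chromatin at least 2000 bp wide whose centre lies more than 5 kb from the principal start site of every protein-coding gene. They were selected on the width of peaks called in control facial ectoderm and on their position, on chromosomes 1 to 19. Of 65467 control peaks, 63926 were on these chromosomes, 44823 of those were distal, and 796 of the distal peaks, the members, reached this width. The data are ATAC-seq of surface ectoderm dissected from the facial prominences of mouse embryos at embryonic day 11.5, with 2 control and 2 EDKO libraries. Control embryos carried 1 floxed allele each of Tfap2a and Tfap2b and lacked the Crect transgene (Tfap2aflox/+; Tfap2bflox/+). EDKO embryos carried Crect and floxed alleles of both genes on both chromosomes (Tfap2afl/fl; Tfap2bfl/fl; CRECT). Crect expresses Cre from an intronic enhancer of Tfap2a, so the deletion is meant for the ectoderm, and controls without Crect do not show what Cre itself does. Both control libraries were combined into a single list of peaks. The control libraries set against the EDKO libraries gave 3103 regions more accessible in controls, here called AP-2-dependent regions. Neither list holds a value per library, so no spread between replicates can be given and no test was made. The 95% intervals below are Wilson intervals unless named otherwise and cover counting error only.

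ATAC-seq marks DNA that a transposase can reach, mostly promoters and enhancers free of nucleosomes. AP-2 proteins are transcription factors that bind GC-rich palindromes as dimers and act early in the surface ectoderm and the neural crest. A wide peak can be a promoter within a CpG island, several enhancers side by side, or sequence that the genome holds in many copies, and these kinds were kept apart.

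The sequences below reach 75 bases to either side of the summit of an AP-2-dependent region and were read from GRCm38 on the plus strand. They belong to members of sequence found once in the assembly, and are shown because they are the summits of the regions with the largest area among these. The area is the peak caller's sum of −log10 p above its threshold. The ribosomal RNA locus and Tfap2a, described further on, also rank among these members and are not shown. Capitals mark matches of the AP-2 string GCCNNNGGC, which is its own reverse complement.
Tjap1 intron chr17:46266288-46266438: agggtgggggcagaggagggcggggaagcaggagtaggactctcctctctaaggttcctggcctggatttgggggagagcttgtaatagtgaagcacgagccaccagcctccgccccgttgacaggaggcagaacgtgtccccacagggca
Nfe2l3 chr6:51076879-51077029: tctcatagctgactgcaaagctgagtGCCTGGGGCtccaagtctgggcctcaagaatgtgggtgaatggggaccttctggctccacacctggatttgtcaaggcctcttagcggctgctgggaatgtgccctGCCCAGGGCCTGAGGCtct
Klf5 chr14:99579479-99579629: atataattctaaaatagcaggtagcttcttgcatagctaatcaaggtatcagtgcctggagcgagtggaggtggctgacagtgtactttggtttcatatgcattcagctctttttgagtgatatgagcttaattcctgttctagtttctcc
Dlx2 chr2:71541433-71541583: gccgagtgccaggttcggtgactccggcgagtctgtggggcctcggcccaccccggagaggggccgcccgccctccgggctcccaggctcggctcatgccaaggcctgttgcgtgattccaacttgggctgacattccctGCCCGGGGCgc
Ptprf intron chr4:118276903-118277053: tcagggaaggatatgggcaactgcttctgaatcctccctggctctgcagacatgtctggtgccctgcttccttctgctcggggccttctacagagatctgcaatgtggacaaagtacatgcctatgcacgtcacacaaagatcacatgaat
Haao chr17:83902304-83902454: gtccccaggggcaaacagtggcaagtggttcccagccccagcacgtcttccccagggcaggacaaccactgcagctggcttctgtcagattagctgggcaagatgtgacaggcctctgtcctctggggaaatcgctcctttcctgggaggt
Pard3b intron chr1:62590916-62591066: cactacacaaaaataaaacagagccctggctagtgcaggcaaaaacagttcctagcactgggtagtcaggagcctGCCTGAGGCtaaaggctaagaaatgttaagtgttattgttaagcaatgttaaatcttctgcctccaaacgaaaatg
Itga3 intron chr11:95070249-95070399: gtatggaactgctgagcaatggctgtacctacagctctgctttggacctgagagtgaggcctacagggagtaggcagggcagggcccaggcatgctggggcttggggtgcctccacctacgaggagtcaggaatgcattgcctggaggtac
Of these windows, that of Nfe2l3 held 3 matches, those of Dlx2 and the Pard3b intron held 1 each, and the others held 0. A string match is a description and not a bound site.

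The 796 peaks fell into 3 kinds. Sequence present more than once in the assembly, with a median of at least 2 copies over the 31-base words of the peak, made up 159 members. Another 315 were single-copy and lay over an annotated start other than the principal start of a protein-coding gene, and 322 were single-copy with no annotated start. Single-copy sequence made up 80.0% (77.1 to 82.7) of the broad distal peaks, 91.5% (91.2 to 91.8) of the 44027 narrower distal peaks and 98.6% of the 2777 broad peaks near a start. Members ranged from 2000 to 43465 bp, with a median of 2472 bp. The 9 members of at least 10000 bp were all of repeated sequence. At the lower limit, members near Ccser1, Rnf19a and Tnfrsf19 were 2000 bp wide, and distal peaks near Lypd6b, Wdr5 and Ptpn14 stayed just outside with 1999, 1997 and 1996 bp. The member closest to a principal start was that of Zfp692, at 5008 bp.

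**Figure D1:**
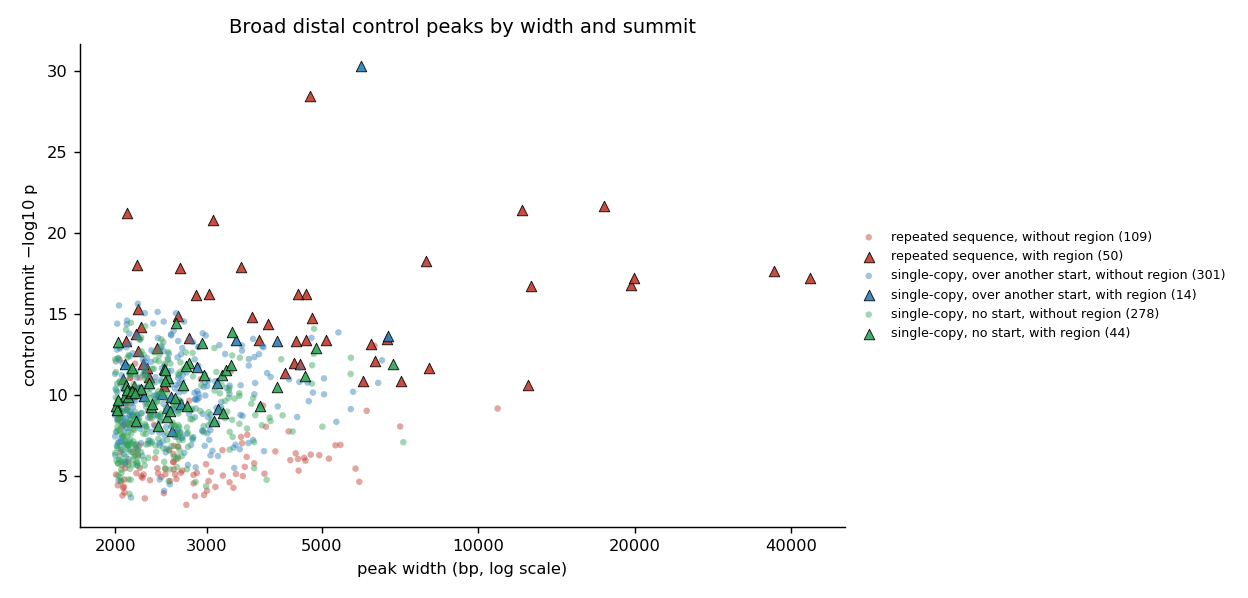
Width (bp, log scale) against the summit −log10 p of the control call for the 796 broad distal peaks, coloured by kind, with triangles for peaks that hold an AP-2-dependent region. The members of at least 10000 bp are of repeated sequence, and the single-copy triangle at the top, with a summit −log10 p of 30.3, is the ribosomal RNA locus of chromosome 17.

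An AP-2-dependent region overlapped 108 of the 796 members, 13.6% (11.4 to 16.1), beside 5.77% of all distal control peaks and 4.51% of all control peaks on chromosomes 1 to 19. The regions were called with the same control libraries as the peaks, so the lists are not independent. Repeated members held a region in 31.4% (24.7 to 39.0), single-copy members over another start in 4.44% (2.67 to 7.32) and single-copy members without a start in 13.7% (10.3 to 17.8). Narrower distal peaks of these kinds gave 2.67%, 3.31% and 6.08%. The intervals of broad and narrower peaks lay apart for members without a start and overlapped for members over another start. They also lay apart for repeated members, but 113 of these 159 lay in 8 chains of nearby repeated members. The interval for repeated members thus counts copies as separate loci and does not measure the spread between loci. Over all single-copy members the share was 9.11% (7.11 to 11.6), beside 5.96% of all single-copy distal peaks.

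A wider peak offers more bases to overlap. Within 250 bp of the summit, the same length for every peak, 11.9% (9.86 to 14.4) of members and 5.60% of narrower distal peaks held a region. Repeated members gave 29.6% there, and single-copy members together 7.54% (5.73 to 9.85). The 5.60% covers narrower peaks of all kinds. Of narrower single-copy distal peaks, 5.91% held a region anywhere in the peak, a value within the interval of single-copy members. Single-copy members over another start gave 2.54% and those without a start 12.4% (9.26 to 16.5). Counted per length of peak, the order of members and narrower peaks turned. Members were chosen on width, by which this count is divided, so a lower density follows in part from the choice and is a description. Members held 82.9 region centres per Mb (71.7 to 95.3, Poisson interval) and narrower distal peaks 101 (97.5 to 105). Among single-copy peaks alone the densities were 38.4 (29.6 to 48.9) in members and 106 (102 to 111) in narrower peaks, and among single-copy peaks without a start 61.0 (45.4 to 80.2) and 114 (109 to 119).

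The summit −log10 p had a median of 9.15 in members and 4.64 in narrower distal peaks. It comes from the call that gave the widths, so this difference is a description. In the strongest quintile of all distal peaks by summit −log10 p, from 6.44 to 30.7, a region lay in 16.1% (13.6 to 19.1) of 669 members and in 15.9% (15.1 to 16.7) of narrower peaks. No member of the other quintiles held a region (0 of 84, 0 of 30, 0 of 8 and 0 of 5 in falling order of strength), where narrower peaks gave 6.79%, 3.71%, 1.92% and 0.642%. Single-copy members of the strongest quintile held a region in 10.1% (7.86 to 12.8), below the 15.5% (14.8 to 16.3) of narrower single-copy peaks, although their summits were higher, with a median of 9.67 against 7.67. For single-copy peaks of that quintile without a start, the shares were 15.7% (11.9 to 20.4) and 17.4% (16.5 to 18.3), with overlapping intervals.

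**Figure D2:**
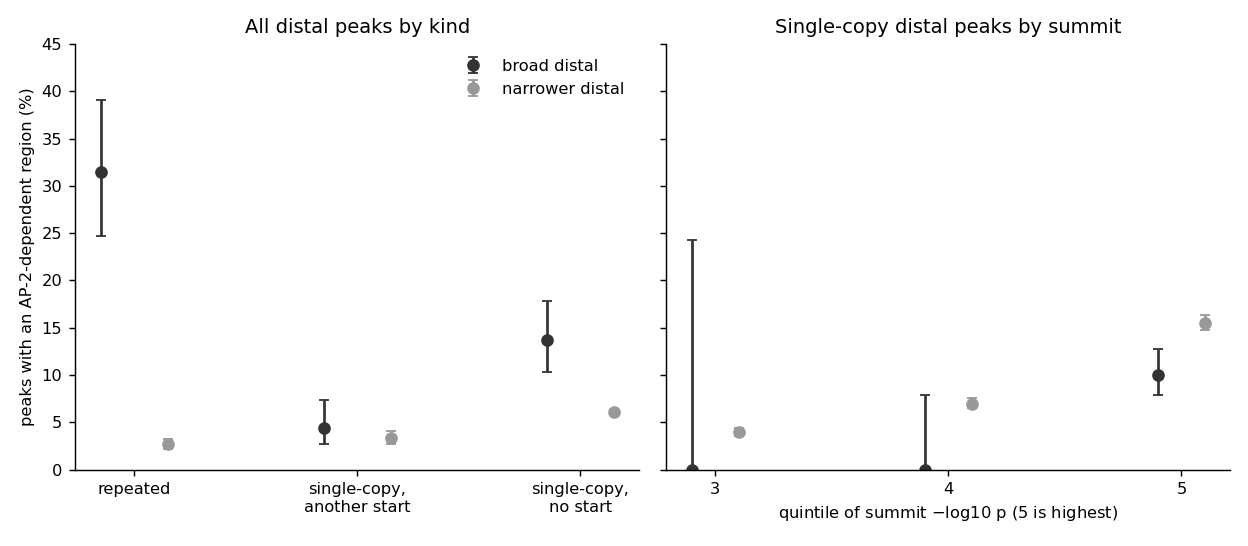
Share of peaks (%) that hold an AP-2-dependent region, for broad and narrower distal peaks, by kind on the left and by quintile of summit −log10 p among single-copy peaks on the right, with 95% Wilson intervals. On the left the broad repeated members stand at 31.4% and narrower repeated peaks at 2.67%, and on the right broad single-copy peaks of the highest quintile stand at 10.1%, under the 15.5% of narrower ones.

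Without the ribosomal RNA locus, 57 single-copy members, with or without a start, held a region. Regions filled these members to a median of 14.05% (quartiles 10.6 and 18.6%), and 1 of them, at Sema3c, to more than 50%. Single-copy narrower distal peaks with a region were filled to a median of 70.9%, and 1670 of 2380 reached 50%. The regions had a median size of 350.5 bp in these members and 358 bp in the narrower peaks. Members were chosen on a width of at least 2000 bp, so with regions of like size the lower filled share follows from the choice and is a description. The peak's own summit lay inside a region in 77.6% of the single-copy members with a region, 45 of 58, against 99.1% of the narrower peaks. The distance from region summit to peak summit had a median of 55 bp, against 16 bp in narrower peaks, and reached 4615 bp at Ptprf. A pair of regions was held by 7 single-copy members.

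**Figure D3:**
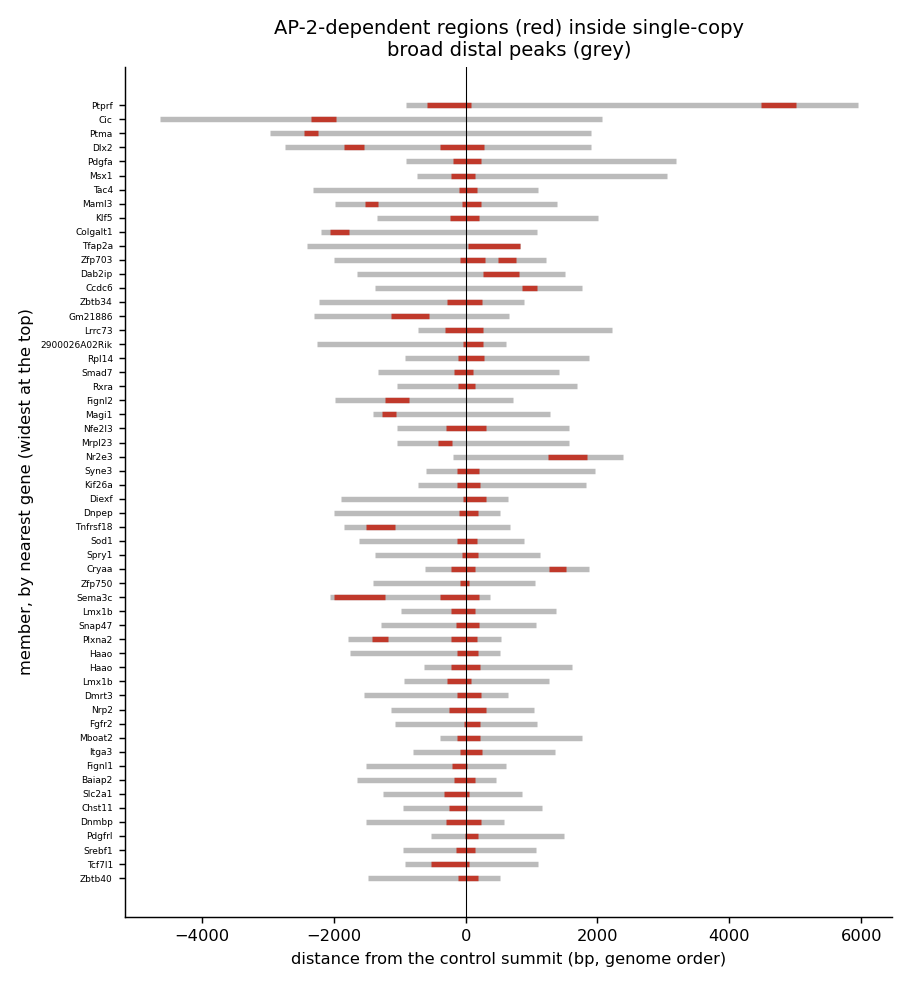
Position of AP-2-dependent regions (red) within single-copy members that hold one (grey, widest at the top, named by nearest gene), drawn for all of the 57 but 1 and without the ribosomal RNA locus, as distance in bp from the control summit at 0. Most red bars cover the summit and leave the rest of the peak grey, and the second region of Ptprf lies 4615 bp away.

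Among single-copy members outside the ribosomal RNA locus, the largest region area, 1893, lay at chr17:46265651-46268590 in an intron of Tjap1, 13.6 kb from the start of Lrrc73. The region covered 569 of 2940 bp, and the peak held 5 matches of the AP-2 string. A member 355 kb upstream of Nfe2l3 (chr6:51075954-51078569), which codes for a CNC-type bZIP factor, held a region of 608 bp with an area of 1794. Its whole peak held 4 matches, and 3 of them are in the window printed above. Next came Klf5, a zinc finger factor of epithelia, with a member 281 kb downstream of its start (chr14:99578206-99581555) and a region of 448 bp with an area of 1791. These remote intergenic members had no annotated start, and a nearest gene is a matter of distance and not of control.

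The homeobox gene Dlx2, active in pharyngeal arches and forebrain, had a member of 4650 bp centred 5.67 kb from its start (chr2:71538763-71543412). It held regions of 662 bp, at the summit with an area of 1457, and of 305 bp, whose summit lay at −1758 bp from it in genome order. Ptprf codes for a receptor tyrosine phosphatase, and its intronic member of 6845 bp (chr4:118271462-118278306) held regions of 665 and 534 bp near its ends. Areas above 1000 were also reached by single-copy members near Haao (1223), in a Pard3b intron nearest to Nrp2 (1105), at Tfap2a (1025) and in an intron of the integrin gene Itga3 (1012).

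By region bases, Sema3c led the single-copy members outside the ribosomal RNA locus. Its regions of 781 and 581 bp covered 1362 of 2423 bp, 56.2% of the peak. Sema3c codes for a secreted semaphorin, and Plxna2, which codes for a plexin receptor, had a member 511 kb upstream of its start with 628 bp in its 2 regions. Members at Zfp703, Cryaa and Maml3 also held 2 regions each, with 662, 618 and 480 bp in all. The TCF/LEF family gene Tcf7l1 had a single intronic region of 578 bp with an area of 924 (chr6:72723497-72725514). Members with smaller areas included those in introns of Rxra (497), a retinoid receptor gene, and Fgfr2 (228), an FGF receptor gene, and a member near Spry1 (662), an inhibitor of receptor tyrosine kinase signalling.

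Tfap2a, which codes for one of the AP-2 factors removed in EDKO ectoderm, was nearest to 4 members, all downstream of its start, the first of them by 10.6 kb. The member of 3223 bp at chr13:40716877-40720099 held the only region of the 4, with 791 bp from 40719309 to 40720099. This region shared 25 bp with coding exon 6 of 7. The floxed stretch of the conditional allele includes this exon and is deleted by Cre, so missing DNA and lower accessibility cannot be told apart here. The LIM homeobox gene Lmx1b also had 4 members, all in its introns, and those centred 23.5 and 35.8 kb from the start each held a region, of 366 and 364 bp. Ahdc1, an AT-hook gene, had 7 intronic members, more than any other gene by single-copy members. None of the 7 held a region, where 9.11% of all single-copy members did. Of the Ahdc1 members, the one of 7173 bp (chr4:133041341-133048513) was the widest of the single-copy kinds. Other genes with 4 single-copy members were 1700001O22Rik, Bcl9l, a cofactor of beta-catenin, Cxxc5, and Vgll4, a cofactor of TEAD factors.

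**Figure D4:**
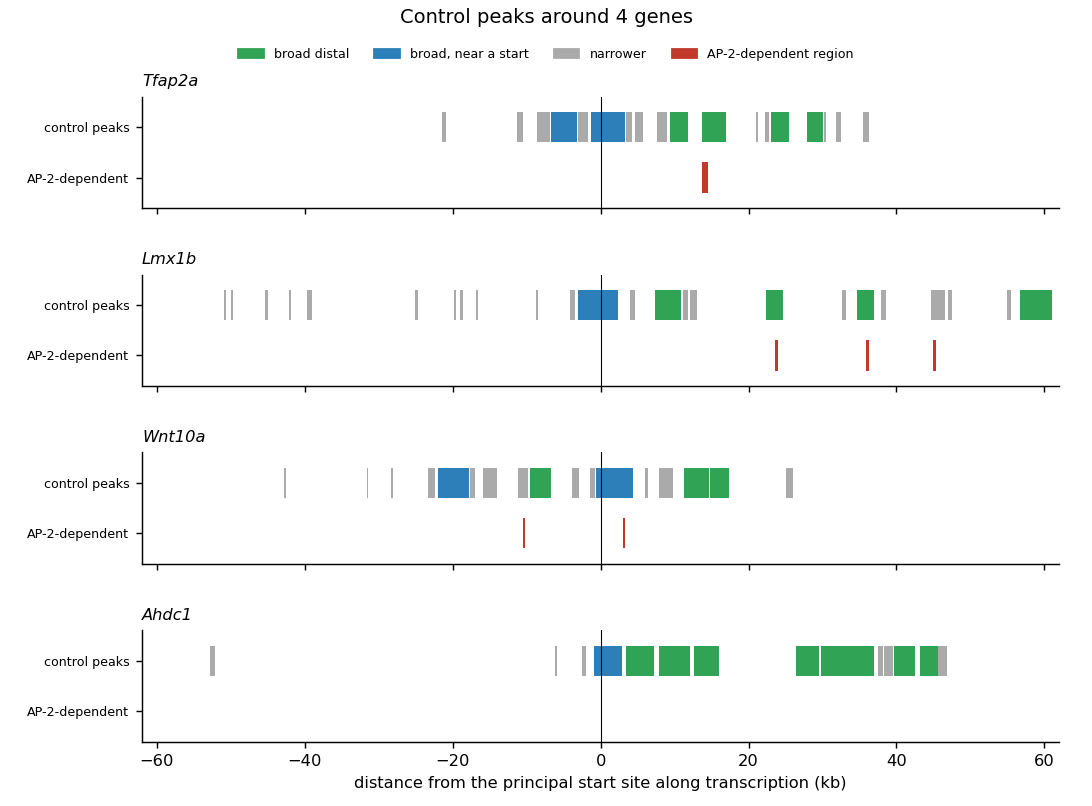
Control peaks (upper row of each gene) and AP-2-dependent regions (lower row) around Tfap2a, Lmx1b, Wnt10a and Ahdc1, by distance in kb from the principal start site at 0 along the direction of transcription. Broad distal members are green, and the 7 green peaks of Ahdc1 have no region below them.

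Single-copy members were nearest to 527 genes, and 446 of these had 1 member. Known ectoderm genes, in lists of epidermal regulators, keratin and adhesion genes, placode and oral regulators, signals and Wnt ligands, were together nearest to 30 of the 796 members, 3.77% (2.65 to 5.33), and to 1.43% of the narrower distal peaks. Epidermal regulators had 11 members, with 4 at Tfap2a, 2 each at Grhl2, a grainyhead factor, and Trp63, the p63 gene, and 1 each at Klf5, Ovol1 and Tfap2c. Regions lay in 2 of these 11, those of Tfap2a and Klf5, where 9.11% of all single-copy members held one. Of the 195 narrower distal peaks nearest to epidermal regulators, 20 held one. The widest of the 11 members, a peak of 4830 bp 34.5 kb upstream of Grhl2 (chr15:37196076-37200905), had a summit −log10 p of 14.1 and no region. Both Trp63 members were intronic, 41.8 and 47.7 kb downstream of the start used.

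Placode and oral ectoderm regulators had members too, with 1 each at Pax6, Pitx1 and Sox2. None of these 3 held a region, where 9.11% of all single-copy members did. Pax6 and Pitx1 code for homeobox factors of lens placode and oral ectoderm, and Sox2 for an HMG-box factor. Facial ectoderm signals had 5 members, at Bmp7, Pdgfa and Fgf17, and a Pdgfa member 63.7 kb from the start held a region of 432 bp with an area of 241. Wnt ligand genes had 5 members, 3 nearest to Wnt10a, 1 to Wnt11 and 1 to Wnt4, and 0 of them held a region, where 9.11% of all single-copy members did. Of the 110 narrower distal peaks nearest to Wnt ligand genes, 7 held one. Around Wnt10a, regions lay in other peaks, 1 in the broad peak at its start and 1 in a narrower distal peak upstream. Of the 3 members nearest to Wnt10a, 1 lay over a start of Wnt6, with its summit in a coding exon of Wnt6. Among keratin and adhesion genes, the claudin gene Cldn3 had 1 member, without a region.

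The surface ectoderm was dissected from mesenchyme, and genes of the other tissues were counted in the same way. Mesenchyme and neural crest genes had 5 members, 2 at Msx1 and 1 each at Dlx2, Osr2 and Pax3. Regions lay in the Dlx2 member and in 1 at Msx1, where 9.11% of all single-copy members held one. Of the 163 narrower distal peaks nearest to these genes, 4 held one. The Msx1 member 6.07 kb from the start (chr5:37816617-37820410) had a region of 365 bp with an area of 564. Msx1 and Dlx2 are also active in facial ectoderm, and which cells gave these peaks was not tested. Endothelial, blood, muscle and neural lists had 0 members. Among the 44027 narrower distal peaks these lists had only 42, 17, 3 and 27, so the counts are too small to set these tissues apart. A control peak lay within 1 kb of the start of all 15 epidermal regulators and all 24 keratin and adhesion genes, and also of 28 of 28 mesenchymal genes, 5 of 10 endothelial, 2 of 6 blood, 2 of 4 muscle and 6 of 8 neural genes, so these peaks alone do not show a pure ectoderm.

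Members over another annotated start resembled promoters in base composition. In all, 43.0% (39.6 to 46.4) of members lay over such a start, against 6.13% of narrower distal peaks. A start counted anywhere in the peak, and members were chosen on width, so they offer more bases to hold one. The starts were other starts of protein-coding genes in 252 members, long noncoding RNA starts in 106 and miRNA starts in 11. CpG-rich members, with at least 50% GC and an observed over expected CpG of at least 0.6, made up 49.2% of the single-copy members over another start, 9.01% of those without a start and 8.18% of repeated members. Together 24.7% (21.9 to 27.9) of members were CpG-rich, between the 4.92% of narrower distal peaks and the 69.7% of broad peaks near a start. Among the widest single-copy members, those at Cic, Agap3, Gse1 and Plec lay over other starts of their own genes, with 6704, 6526, 6417 and 5743 bp. Cic codes for the repressor capicua and Plec for the cytolinker plectin. The Cic member held a region of 387 bp away from its summit, and those of Agap3, Gse1 and Plec held none.

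**Figure D5:**
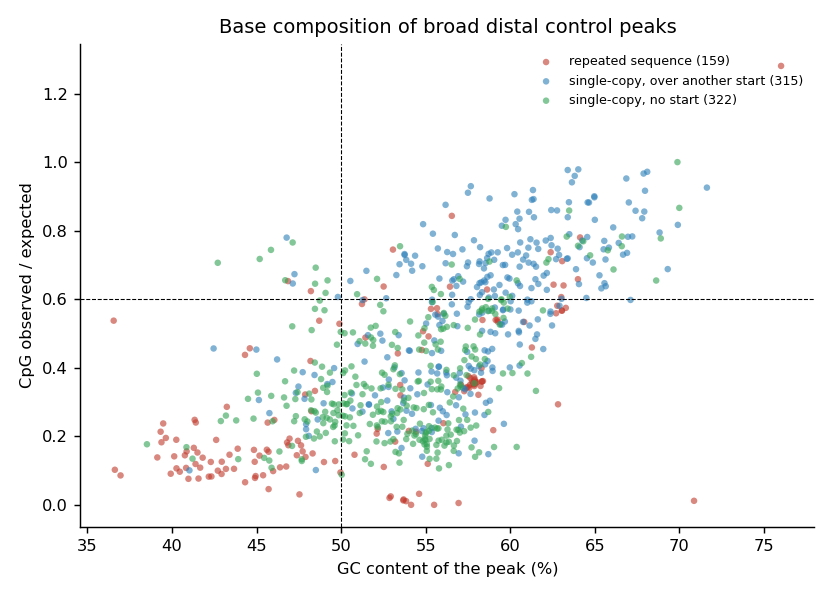
GC content of each member (%) against its observed over expected CpG, coloured by kind, with dashed lines at 50% and 0.6 that bound the CpG-rich class on the upper right. Members over another start (blue) fill that corner, 49.2% of them CpG-rich, and members without a start (green) lie mostly below the horizontal line.

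A few members lay over starts of miRNA genes known from epithelia. The members at Mir205 (chr1:193507460-193509803), at Mir141 and Mir200c (chr6:124717890-124720052) and at Mir203 (chr12:112129129-112131581) had summit −log10 p of 12.1, 8.83 and 10.9, and none held a region. The mature sequences from RefSeq (GRCm38.p6) are given for these 4, with the seed, bases 2 to 8, in capitals. The seeds of miR-141-3p and miR-200c-3p are not the same, although both miRNAs come from 1 member.
miR-205-5p: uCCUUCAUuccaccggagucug
miR-141-3p: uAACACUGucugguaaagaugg
miR-200c-3p: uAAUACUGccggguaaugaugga
miR-203-3p: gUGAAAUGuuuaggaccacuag
Across the 11 members with a miRNA start, 12 miRNA genes were found, of which 9 matched the RefSeq sequences. The 4 above were picked from these 12. Members over Mir124a-3, Mir22, Mir193a, Mir760 and Mir7687 also held no region. The members with a miRNA start near Fcgr3, of repeated sequence, held 1, 2 and 2 regions. MiR-205, miR-203 and the miR-200 family are enriched in epithelial cells, and whether these genes were transcribed here was not measured.

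Most repeated members lay in few places. Chains of at least 3 repeated members with gaps of at most 200 kb numbered 8 and took up 113 of the 159, and 107 repeated members were on chromosomes 6 and 8. On chromosome 8, from 19698394 to 20835682, 64 members with a median of 6 copies lay near Gm21119, Gm15319, Gm31371 and the defensin gene Defb33, and 8 of them held a region. On chromosome 6, from 114498504 to 114637788, 21 of 27 members near Atg7 and Hrh1 held a region, at a median of 49 copies. Although alike in being repeated, these places differed in how much of their length the regions covered. At Rhou and Gas8 on chromosome 8, 4 members held 56 regions over 62.2% of their bases, and the widest member of all, with 43465 bp, held 27 of them. The chain at Pdia4 and Ezh2 had 6 members with 19 regions over 29.2% of the bases, that at Atg7 and Hrh1 12.8% and the chain with the defensin gene 1.94%. Chains at Sfi1 and Gpm6a had 3 members each and 0 regions. Outside the chains, 7 of 46 repeated members held a region.

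Regions were wider in repeated members, with a median of 747 bp, and repeated members held 131 of the 196 regions found in all members. Aligned reads of such sequence can be placed at more than 1 copy, so copies do not count as separate loci, and the part of read placement in these values was not tested. The 6 members with at least 1000 copies held 0 regions. On chromosome 17, the member from 39842933 to 39848891 lay over an annotated ribosomal RNA gene. It had the highest summit −log10 p of all members, 30.3, and a region filled 99.7% of it with an area of 485438. The assembly holds this sequence once, so it counted as single-copy, whereas ribosomal RNA genes are repeated in the genome itself.

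The AP-2 string lay within 100 bp of the summit in 21.5% (18.8 to 24.5) of members and in 12.1% (11.8 to 12.4) of narrower distal peaks. Windows of the same length 1 kb away gave 9.42% in members, where they mostly lie in or at the edge of the wide peak. By kind, the shares were 24.5% in repeated members, 25.1% in single-copy members over another start and 16.5% (12.8 to 20.9) in those without a start, for which narrower peaks gave 11.9%. Base composition differed as well, with a median GC of 55.6% in members and 49.8% in narrower peaks. By kind, the median GC of the whole peak was 52.1% in repeated members, 58.3% in those over another start and 53.7% in those without a start. The part of base composition in the shares was not tested. Single-copy members with a region held the string at the summit in 29.8% (19.5 to 42.7), 17 of 57, and those without in 19.9% (16.8 to 23.3), with overlapping intervals.

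Other strings were less frequent in members. The CTCF string lay at the summit of 2.01% (1.24 to 3.24) of members and 7.43% of narrower distal peaks, and the p53 family string of 5.40% and 10.5%. CTCF is the insulator protein, and p63 belongs to the p53 family. The TEAD string GGAATG was at 16.96% (14.5 to 19.7) against 21.1%, but single-copy members without a start had 21.7% (17.6 to 26.6), beside 22.1% in narrower peaks of that kind. For CTCF and the p53 family the members without a start stayed low, at 2.80% and 6.21%, beside 8.10% and 11.2%. Windows 1 kb from the summits of members gave 0.691% for CTCF, 6.09% for the p53 family and 12.0% for TEAD. For the p53 family, the share at the summit of members was thus not above that 1 kb away. The part of base composition in these shares was not tested either. All strings were searched on both strands.

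Members had more neighbours than narrower distal peaks. A median of 9 other peaks lay within 50 kb of a member and 4 within 50 kb of a narrower distal peak, with 27 for repeated members and 10 for single-copy members without a start. The gap to the next peak had a median of 1415.5 bp, against 6553 bp. Distance to a start was part of the choice and is a description. Its median was 32.3 kb in members, 51.5 kb in repeated and 28.0 kb in single-copy ones, and 44.5 kb in narrower peaks, and 129 of the 796 were beyond 100 kb. Their summits were intergenic in 52.1%, intronic in 36.1%, in untranslated or noncoding exons in 9.30% and in coding exons in 2.51%.

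Enhancers tested in transgenic embryos by the VISTA project, as listed in RefSeq, overlapped 26 members. This comparison was added after the reference was seen. A VISTA enhancer held the summit of 2.64% (1.73 to 4.00) of members and of 0.652% of narrower distal peaks, and 23 of the 26 members were single-copy without a start. Of the 26 enhancers, 7 were active in nose, branchial arch or facial mesenchyme, against 161 of all 617 on chromosomes 1 to 19. Examples were mm429 near Stx18 (chr5:37966786-37969237), active in facial mesenchyme, branchial arch and limb, and mm1494 near Ephb2 (chr4:136754947-136758016), active in nose and midbrain. All 26 members were single-copy. Regions lay in 2 of the 26, where 9.11% of all single-copy members held one. In both, the Msx1 member described above among them, the region lay outside the enhancer. The tissues are those that VISTA scored, and activity in facial ectoderm was not measured here.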

How the data were processed

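ATAC-seq read pairs from 4 libraries were trimmed, aligned to mm10 with Bowtie2 and called with Genrich by the authors, without PCR duplicates and mitochondrial reads. Pairs could be kept at several positions. The authors deposited, for each peak, a score (area under the curve over width, scaled up and capped at 1000), the area itself, also a score, and the −log10 p at the summit, unadjusted. Both lists combine their libraries. Values were used within a list only, since the backgrounds differ. The lists hold no read counts, so depth could not be compared between libraries. The paper gives an approximate sequencing depth per sample.

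Start sites were those of the principal transcripts of 21938 protein-coding genes (GENCODE mouse release 21, GRCm38), and the nearest start gave a peak its gene. Overlaps counted from 1 bp. Copy number was the median occurrence of a peak's 31-base words in the assembly, single-copy below 2. Strings were matched within 100 bp of the summit and in windows 1 kb away. Enhancers and miRNAs came from RefSeq. Members and lists were chosen with earlier results of these data known. Named were the 10 widest members, the 10 widest single-copy members, the 10 single-copy members with the largest region area and the 10 with the most region bases, members at genes of the lists, genes with the most members and the peaks at each threshold. Members over miRNA starts or VISTA enhancers, and the other named single-copy members with a region (Rxra, Fgfr2 and Spry1 among them), were picked after their values were seen. Results for a few genes of the lists are not reported here. Alternatives to each choice were computed. Overlap, nearest start, interval and string search were tested on simulated data. Python 3.11.15, numpy 2.4.6, pandas 2.3.3, scipy 1.17.1, numba 0.67.0 and bedtools 2.31.1 were used.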

Additional observations from a re-analysis of the deposited data

Results flagged for a closer look

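The comparisons were limited to chromosomes 1 to 19, and data outside them held a signal of the same kind. Another 64 control peaks of at least 2000 bp lay elsewhere, among 1541 control peaks there, 50 on the X chromosome, 7 on the Y chromosome and 7 on scaffolds. The widest had 52312 bp, more than the 43465 bp of the widest member. Their distance from start sites was not part of this count.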

How the results depend on the processing

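The 9 main results were recomputed 89 times in all, 82 of them with choices of processing listed at the start and 7 with choices made after seeing the data. Of these, 45 stayed within the interval of the reported value, or for the number of peaks within 1.5 times, and 44 moved outside it. No paired analysis was possible because each call pooled its libraries, and for the same reason no library could be left out.

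The number of members was 1928 at a width of at least 1500 bp, 197 at 3000 bp, 293 beyond 50 kb, 493 when distance was taken from every protein-coding transcript start and 355 from every transcript start. The share of members with an AP-2-dependent region was 8.67% at an area of at least 500, 24.4% at 3000 bp, 16.4% beyond 50 kb, 18.5% and 19.2% with the coding and all starts, 9.11% for single-copy peaks and 11.1% when regions had to fill 10% of the peak. In narrower distal peaks, where the reported share is 5.63%, these settings gave 3.46% at an area of 500, 5.69% at 3000 bp, 7.03% beyond 50 kb, 5.96% and 6.16% with the coding and all starts and 5.91% for single-copy peaks. By quintile of summit −log10 p it was 0%, 0%, 0%, 0% and 16.1%. Of the added settings, leaving out members over another start gave 17.2% and single-copy peaks of the strongest quintile 10.1%. Regions per Mb were 56.7 at an area of 500, 136 at 3000 bp, 115 with coding starts, 38.4 for single-copy peaks and 61.0 for single-copy peaks without a start. The median filled share was 19.9% at 1500 bp and 20.1% beyond 50 kb. Single-copy members were 85.1% at 1500 bp, 64.5% at 3000 bp, 71.3% beyond 50 kb, 69.4% with coding starts and 68.5% with all starts. CpG-rich members were 18.8% at 3000 bp, 11.6% with coding starts, 7.04% with all starts, 28.9% among single-copy peaks and 38.7% within 500 bp at the summit. Members over another start were 37.1% at 1500 bp, 17.4% with coding starts, 0% with all starts, by construction, and 49.5% among single-copy peaks. The AP-2 string was at 25.3% of summits beyond 50 kb, 36.3% within 500 bp and 16.5% for single-copy peaks without a start, and ectoderm list genes at 2.05% beyond 50 kb. The cause of the other moves was not tested. Depth could not be compared between libraries. A member without a region had none past the caller's threshold, which is not evidence of equal accessibility.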

Other observations

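Gene families, some of whose genes are in the lists above, were also counted by the nearest start. The 53 keratin genes, the 39 Hox genes, the 28 cadherin genes and the 8 Lhx genes had 0 broad distal members, with 52, 36, 162 and 44 narrower distal peaks. Forkhead genes had 9 members, 3 of them at Foxp1, 2 each at Foxo6 and Foxp4, and 1 each at Foxl1 and Foxn3, and none held a region. Sox genes had 5, at Sox2, Sox4, Sox6, Sox14 and Sox21, also without a region. Among all single-copy members, 9.11% held one. Semaphorin genes had 5, of which 3 were at Sema3f and the one at Sema3c held regions. Of the other families counted, a region lay in 1 of 5 Tfap2 members, 1 of 4 Klf members, 1 of 3 collagen members and 1 of 2 Dlx members. The collagen member with a region was of repeated sequence.

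Single-copy members were spread unevenly over the chromosomes. Chromosome 11 held 56.5 per 100 Mb and chromosome 14 held 13.6, the highest and the lowest of the 19, while narrower distal peaks differed less between these, with 2257 and 1565 per 100 Mb. Gene density was not taken into account.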
